A study of Mus musculus with 24 samples.

Results

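The response of the mouse duodenum to 1,25-dihydroxyvitamin D3 (1,25D), the hormonal form of vitamin D, was examined in animals kept on a mineral-rich rescue diet. The comparison covers 12 of the 24 RNA-seq libraries of the series, chosen by their titles: 6 from mice given vehicle and 6 from mice given 1,25D, all on the rescue diet. Every animal was a male Cyp27b1 null mouse, which lacks the enzyme that makes 1,25D, so the vehicle group had no 1,25D of its own making from that enzyme. Mice were weaned at 3 weeks of age onto a purified diet deficient in vitamin D, and the rescue diet added 20% lactose and raised calcium to 2% and phosphorus to 1.25%. When 8 weeks old they received vehicle or 2 ng of 1,25D per g of body weight into the peritoneal cavity, and the duodenum, the first segment of the small intestine, was taken 6 h later. The other 12 libraries come from mice of the same genotype, sex and age on a diet with 0.47% calcium and 0.3% phosphorus, the normal diet, likewise deficient in vitamin D and likewise split between vehicle and the same dose of 1,25D. A wild type group is not analysed here.

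1,25D acts by binding the vitamin D receptor, Vdr, which pairs with a retinoid X receptor on DNA and recruits coactivators to nearby genes. In the proximal intestine the hormone is best known for active calcium absorption, in which calcium enters through a channel of the brush border, crosses the cell bound to a carrier protein and leaves through a pump of the basolateral membrane. The hormone also switches on its own breakdown through Cyp24a1, the enzyme that hydroxylates its side chain.

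Values are RPKM, read numbers divided by the length of the feature and the size of the library, and so are levels per length. Fold changes are differences of mean log2(RPKM + 0.5), a scale that shrinks the change of weakly expressed genes. A gene was called when its limma p, adjusted by the Benjamini-Hochberg method over all 20006 genes tested, was under 0.05. The labels give 12 mice per diet and 8 injected mice per group for 6 samples per group, and do not tie a library to an animal, and a p-value here therefore speaks of the spread among libraries, which may be partly technical.

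The 12 libraries had summed RPKM between 541395 and 697913 and relative depths between 0.617 and 1.67; the absolute depth is unknown. The differences between vehicle and 1,25D in these 2 measures and in the number of detected symbols did not pass (exact permutation tests, two-sided, adjusted p = 0.2294 for each). Correlations of log2 values between the rescue libraries ran from 0.867 to 0.981. Rescue 1,25D replicates 4 and 5 lay at opposite ends of the first principal component, which held 46.2% of the variance. Treated replicate 5 correlated best with rescue vehicle replicate 6 (0.981). Treated replicates 2, 4 and 6 likewise correlated best with a vehicle library (0.975, 0.967 and 0.971). Beside the results, the values without treated replicates 4 and 5 are given where they bear on a call. Cyp27b1 lay at or below 0.385 RPKM in all 12; the removed part of the gene is not given, so this level does not check the labels.

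1,25D raised 28 genes and lowered 1 on the rescue diet. These 29 are 0.145% of the genes tested; the raised genes are 0.14% and the lowered gene 0.005%. Of the 29, 16 changed by 2-fold or more and 13 by less. The 28 raised genes included the hormone-degrading enzyme Cyp24a1, 3 genes of calcium absorption, the sugar phosphate exchanger Slc37a2 and the metal exporters Slc30a10 and Slc30a1. For 20 of the 28, all 6 treated libraries lay above all 6 vehicle libraries, an arrangement found in 47 genes (0.235%) of those tested; the other 8 overlapped. Across all genes, 966 had an unadjusted p under 0.05, against 1000 due by chance. Of all genes tested, 600 (3%) had such a p on the higher side and 366 (1.83%) on the lower.

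How firmly the calls stood differed between genes. In all 24 fits that left out 1 library, 11 of the 29 were called, and 8 of these were called under every other setting tried: Cyp24a1, LOC100504348, Slc37a2, Pgap1, Pdlim2, 9630028B13Rik, 5031439G07Rik and Ccdc134. The other 3 were Slc30a1, Gm2061 and Slc30a10, which missed the threshold when only the 12 rescue libraries were fitted (adjusted p = 0.0511, 0.0629 and 0.0629 in limma). At the other end, 10 genes had an adjusted p of 0.0484, at the edge of the threshold. These were Trpv6, Atp2b1, Pfdn4, Ppard, Krt7, Myo19, Ppp1r14d, Zhx2, Rnf149 and the lowered gene Maoa, and each was kept in 2 to 9 of the 24 fits. Between these ends, the call of Grin1 was lost without rescue vehicle replicate 3 (adjusted p = 0.0541). That of Ttc22 was lost without rescue 1,25D replicate 3 or any 1 of rescue vehicle replicates 4 to 6, with adjusted p up to 0.0645. That of Bach1 was lost without rescue 1,25D replicate 4 or rescue vehicle replicate 3, 5 or 6 (up to 0.0658). For Lrrc26 it was rescue 1,25D replicate 2 or 4 or rescue vehicle replicate 3, 4 or 5 (up to 0.0695). For 9130004J05Rik it was rescue 1,25D replicate 3 or 4 or rescue vehicle replicate 1 or 3 (up to 0.0852). For 2200002K05Rik it was rescue 1,25D replicate 2, 3 or 4 or rescue vehicle replicate 1, 3 or 4 (up to 0.0676). For Mctp2 it was any 1 of rescue 1,25D replicates 2 to 4 or of rescue vehicle replicates 1, 2, 3, 5 and 6 (up to 0.0775).

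Cyp24a1, the enzyme that breaks down 1,25D, showed the largest rise of the 28. Under vehicle it lay at 0.712, 0.052, 0.45, 0.055, 0.419 and 0.016 RPKM in replicates 1 to 6. After 1,25D it lay at 430, 452, 627, 962, 92.1 and 278 RPKM. Every treated library was above every vehicle library; replicate 4 was the highest and replicate 5 the lowest of the treated. The log2 fold change was 9.0 (SE 0.44; limma, adjusted p = 8.13e-13), and 9.18 without replicates 4 and 5. Cyp24a1 was the 1 gene called among 17 tested genes of vitamin D metabolism and the receptor complex, whose median log2 fold change was 0.05, beside 0.06 over all genes tested. Vdr itself ranged from 47.2 to 104 RPKM with a median of 78.2 under vehicle, and from 42.1 to 90.3 with a median of 55.1 after 1,25D. The groups overlapped almost throughout. Its log2 fold change was -0.26 (SE 0.25, adjusted p = 0.879), with a 95% interval from -0.78 to 0.25. Rxra, a retinoid X receptor that partners Vdr, had -0.29 (SE 0.14, adjusted p = 0.878). The sterol hydroxylase Cyp27a1 had -0.79 (SE 0.45, adjusted p = 0.878).

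For 2 of the 3 raised calcium absorption genes, and for Slc37a2, the DNA just upstream of the start site is shown first, since the data bear on genes that rose together after a hormone whose receptor binds DNA. These windows were picked because each holds a match; the 2 windows of Atp2b1, the third calcium gene, held 0 and are not shown. The windows are 250 bases upstream of the start from RefSeq (build GRCm38.p6), written 5′ to 3′ on the gene's strand. Capitals mark each match, on either strand, to the hexamer AGGTCA or its relatives GGGTCA, then AGTTCA, and also GGTTCA, the building blocks of the vitamin D response element. The S100g window is at chrX:162964600-162964849, that of Trpv6 at chr6:41636406-41636655 and that of Slc37a2 at chr9:37255739-37255988, all on the minus strand.
S100g: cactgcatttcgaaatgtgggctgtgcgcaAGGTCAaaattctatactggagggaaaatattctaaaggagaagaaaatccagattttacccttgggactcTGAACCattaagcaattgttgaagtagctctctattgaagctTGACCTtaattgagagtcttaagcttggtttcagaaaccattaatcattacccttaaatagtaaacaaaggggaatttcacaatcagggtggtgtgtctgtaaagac
Trpv6: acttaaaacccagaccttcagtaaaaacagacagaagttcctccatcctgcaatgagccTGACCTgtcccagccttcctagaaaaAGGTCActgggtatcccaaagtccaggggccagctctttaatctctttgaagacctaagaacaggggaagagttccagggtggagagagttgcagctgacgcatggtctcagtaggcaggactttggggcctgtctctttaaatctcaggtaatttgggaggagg
Slc37a2: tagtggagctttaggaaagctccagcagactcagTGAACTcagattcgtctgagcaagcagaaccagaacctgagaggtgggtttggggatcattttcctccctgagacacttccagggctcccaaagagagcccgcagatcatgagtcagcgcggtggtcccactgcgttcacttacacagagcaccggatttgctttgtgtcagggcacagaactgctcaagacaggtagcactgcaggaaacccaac
S100g held 3 such hexamers, Trpv6 2 and Slc37a2 1. The full element sets 2 hexamers in the same direction 3 bases apart. RefSeq windows were matched for 22 of the 28 raised genes, 25 windows in all, and 0 of the 25 held the repeat, which 13 of all 32851 windows (0.0396%) held. A single hexamer stood in 9 of the 25 (36%), against 38.6% of all windows of the same length.

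S100g, the cytosolic calcium carrier calbindin-D9k, was already abundant without the hormone. It lay at 426, 119, 193, 226, 129 and 137 RPKM in the 6 vehicle libraries. After 1,25D it lay at 1750, 2123, 1872, 3084, 522 and 1086 RPKM. The groups did not overlap: the lowest treated library, replicate 5, stood above the highest vehicle library, replicate 1. S100g rose by 3.04 on the log2 scale (SE 0.60; limma, adjusted p = 0.0336), with a 95% interval from 1.8 to 4.27. Leaving out 1 library moved the log2 fold change between 2.83 and 3.35 and the adjusted p between 0.000684 and 0.107. The call was kept in 15 of 24 such fits and lost without any 1 of rescue vehicle replicates 2 to 6 or rescue 1,25D replicates 1 to 4. Without both rescue 1,25D replicates 4 and 5 its adjusted p was 0.0491.

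Trpv6, through which calcium enters the enterocyte, was the least abundant of the 3 calcium genes. Under vehicle 5 libraries lay between 0.074 and 0.16 RPKM and replicate 5 at 0.529. After 1,25D the values were 2.28, 2.66, 3.59, 14.6, 0.417 and 1.17 RPKM. Treated replicate 5 fell inside the vehicle range and replicate 4 stood far above the rest. Trpv6 rose by 2.17 on the log2 scale (SE 0.45, adjusted p = 0.0484). The call was kept in 5 of 24 fits that left out 1 library (normal vehicle replicate 6, normal 1,25D replicates 2 and 3 and rescue 1,25D replicates 5 and 6), with adjusted p between 0.00375 and 0.17. It was also lost when only the rescue libraries were fitted (0.273) and with median-of-ratios scaling (0.0526). Without both treated replicates 4 and 5 the log2 fold change was 2.03 and the adjusted p 0.00905.

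Atp2b1, which pumps calcium out across the basolateral membrane, lay at 108, 172, 134, 106, 82.8 and 71.0 RPKM under vehicle. After 1,25D it lay at 204, 256, 257, 270, 127 and 289 RPKM. Treated replicate 5 again fell inside the vehicle range, while the other 5 stood above it. Atp2b1 rose by 1.07 on the log2 scale (SE 0.22; limma, adjusted p = 0.0484) and by 1.21 without both treated replicates 4 and 5 (adjusted p = 0.0228). The call was kept in 4 of 24 fits that left out 1 library (normal vehicle replicates 3 and 6, rescue vehicle replicate 2 and rescue 1,25D replicate 5), with adjusted p between 0.00519 and 0.178. It was also lost with median-of-ratios scaling (0.16) and when only the rescue libraries were fitted (0.2). These 3 genes were the ones called among 19 tested genes of calcium absorption, and the list's median log2 fold change was -0.02. Regucalcin, Rgn, a calcium-binding protein, had the largest negative value of the list: it ranged from 3.27 to 6.13 RPKM under vehicle and from 1.41 to 4.36 after 1,25D (log2 -0.73, SE 0.22, adjusted p = 0.573).

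**Figure D1:**
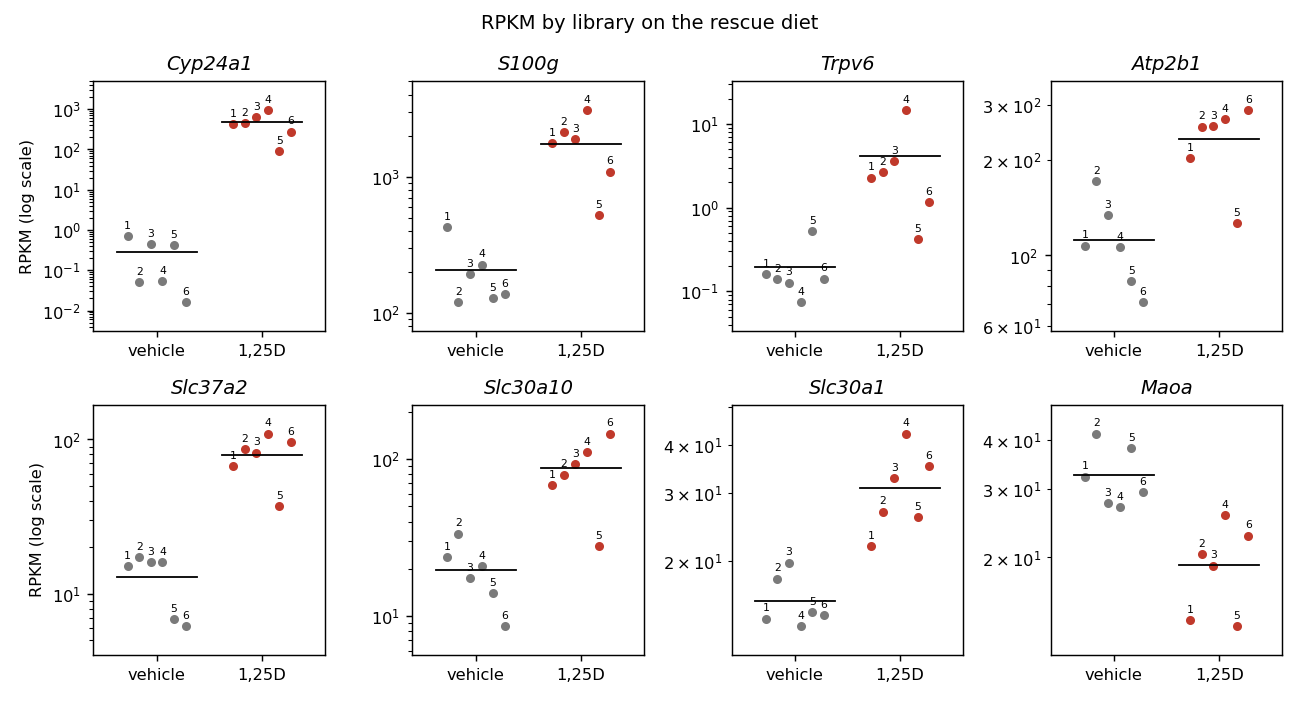
RPKM (log scale) of 8 genes in each of the 12 rescue diet libraries; points are libraries with their replicate number, grey for vehicle and red for 1,25D, and the bar is the mean of the 6. For Cyp24a1, S100g, Slc37a2 and Slc30a1 all treated libraries lie above all vehicle libraries and for Maoa below; in Trpv6, Atp2b1 and Slc30a10 treated replicate 5 falls inside the vehicle range.

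In the tight junction list, Cldn2, a claudin that forms cation pores between cells, was near the threshold. It ranged from 74.9 to 146 RPKM with a median of 112 under vehicle, and from 165 to 357 with a median of 222 after 1,25D. The groups did not overlap, and the limma adjusted p was 0.111 (log2 1.07, SE 0.25). Quantile normalization of the libraries gave 0.0137 and median-of-ratios scaling 0.0752. With only the rescue libraries it was 0.0893, and without both treated replicates 4 and 5 it was 0.217. Cldn2 was called in 1 of 24 fits that left out 1 library, with adjusted p between 0.0243 and 0.306. Of 22 tested genes of claudins and tight junctions none was called by limma, 1 had an unadjusted p under 0.05 on the higher side and 1 on the lower, and the median was -0.06. Of 21 textbook targets of 1,25D, 6 were called, all higher: Cyp24a1, Trpv6, S100g, Atp2b1, Slc37a2 and Slc30a10, with a list median of 0.38. Log2 fold changes were above 0 in 16 of the 21 and below 0 in 5, down to -0.67. With an unadjusted p under 0.05 in limma, 8 were on the higher side and 2 on the lower. Some members of that list became known from studies of intestine that can include these libraries, so its count is not independent evidence.

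Slc37a2, an exchanger of sugar phosphates, showed the clearest change among the transporters. Under vehicle it lay at 15.1, 17.3, 16.1, 15.9, 6.83 and 6.17 RPKM. With 1,25D the values were 67.0, 86.1, 82.2, 109, 36.9 and 95.8 RPKM. The groups did not overlap, and treated replicate 5 was again the lowest of its group. Slc37a2 rose by 2.61 on the log2 scale (SE 0.30; limma, adjusted p = 2.67e-05), with a 95% interval from 2.00 to 3.22. It was the 1 gene called among 15 tested genes of phosphate transport (median 0.07). Slc20a1, a sodium-phosphate cotransporter, had a value of -0.40 on the log2 scale (SE 0.17, adjusted p = 0.878). The intestinal alkaline phosphatase Akp3 had 0.83 (SE 0.48, adjusted p = 0.878), with 4 of 6 treated libraries above all vehicle libraries. Its neighbour in function Alpi had 0.44 (SE 0.32, adjusted p = 0.878).

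Of 24 tested genes of zinc and manganese transport, 2 were called and both rose; the list's median was 0.15. Slc30a10, an exporter of manganese, lay at 23.7, 33.5, 17.5, 20.7, 13.9 and 8.64 RPKM under vehicle. With 1,25D they were 68.6, 79.6, 92.6, 110, 27.9 and 145 RPKM. Treated replicate 5 fell inside the vehicle range and replicate 6 was the highest. Slc30a10 rose by 2.08 (SE 0.36; limma, adjusted p = 0.00977) and by 2.32 without both treated replicates 4 and 5. Slc30a1, the zinc exporter of the basolateral membrane, ranged from 13.5 to 19.8 RPKM under vehicle and from 21.9 to 42.7 after 1,25D. The groups were apart, and the rise was 0.93 on the log2 scale (SE 0.15, adjusted p = 0.00419).

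Other metal transporters had positive values that did not pass the test. The zinc and manganese importer Slc39a8 ranged from 4.84 to 8.79 RPKM under vehicle and from 7.70 to 33 after 1,25D, with 5 of 6 treated libraries above all vehicle libraries (log2 0.92, SE 0.27, adjusted p = 0.425). The zinc importer Slc39a10 had 0.68 (SE 0.19, adjusted p = 0.372) and the zinc exporter Slc30a2 1.03 (SE 0.31, adjusted p = 0.469). At the other end Mt2, a metallothionein that binds zinc, had -1.59 (SE 0.64, adjusted p = 0.878). Mt2 was uneven in both groups, from 2.22 to 35.7 RPKM under vehicle and from 0.435 to 19.1 after 1,25D. Of 12 tested genes of magnesium transport none was called, and the median was 0.17. Cnnm1, of the family of magnesium transport mediators, came nearest (log2 0.79, SE 0.19, adjusted p = 0.152), and the channel Trpm6 had 0.46 (SE 0.22, adjusted p = 0.878). Of 20 genes of iron and copper none was called (median 0.03); the iron importer Slc11a2 had -0.64 (SE 0.31, adjusted p = 0.878).

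Several raised genes sat next to each other on the chromosome. In the gene order of RefSeq, 27 of the 29 called genes could be placed, and they had 53 different neighbours, of which 7 (13.2%) were themselves called, beside 0.145% of all genes tested. Of all 53, 15 had an unadjusted p under 0.05 on the higher side, beside 3% of all genes tested, and none on the lower. The 15 hold the 7 called genes, which leaves 8 of the 46 uncalled neighbours. The median log2 fold change of the 53 was 0.22. The called groups were Cyp24a1 with Pfdn4, 9630028B13Rik with Gm2061 and Slc30a10, and Lrrc26 with Grin1. In each group 2 genes overlap in RefSeq: Cyp24a1 and Pfdn4, Gm2061 and Slc30a10, and Lrrc26 and Grin1. The libraries were directional, but whether the counting used the strand is not stated, so reads of overlapping genes cannot be told apart.

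Pfdn4, a subunit of the prefoldin chaperone, ranged from 5.80 to 10.4 RPKM under vehicle and from 12.6 to 16.4 after 1,25D. All treated libraries were above all vehicle libraries, and it rose by 0.83 on the log2 scale (SE 0.17; limma, adjusted p = 0.0484, kept in 5 of 24 fits that left out 1 library). Gm2061 lay between 1.6 and 8.75 RPKM under vehicle and between 5.42 and 56.9 after 1,25D. In treated libraries it was lowest in replicate 5 and highest in replicate 6, as was Slc30a10, and it rose by 2.69 (SE 0.44, adjusted p = 0.00489). Beside them 9630028B13Rik ranged from 1.07 to 3.26 RPKM under vehicle and from 3.54 to 12.7 after 1,25D, with no overlap, and rose by 1.76 (SE 0.26, adjusted p = 0.00142).

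Lrrc26, an auxiliary subunit of potassium channels, ranged from 1.76 to 6.11 RPKM under vehicle and from 5.80 to 17.3 after 1,25D. Only treated replicate 5 fell below the highest vehicle library, and the rise was 1.51 (SE 0.28; limma, adjusted p = 0.0167). Lrrc26 was the 1 gene called among 27 tested genes of ion and water transport. Its neighbour Grin1, an NMDA receptor subunit known from neurons, ranged from 0.446 to 0.903 RPKM under vehicle and from 1.35 to 3.11 after 1,25D. Grin1 rose by 1.02 (SE 0.18, adjusted p = 0.013). Next to Slc37a2, Tmem218 had a value of 0.52 on the log2 scale (SE 0.16, adjusted p = 0.508), and 1700034H15Rik, which overlaps Slc30a1, had 0.52 (SE 0.15, adjusted p = 0.426).

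The remaining raised genes fall outside mineral transport. Pdlim2, a PDZ and LIM domain protein of the actin cytoskeleton and nucleus, lay at 1.68, 3.06, 1.03, 0.98, 0.511 and 0.736 RPKM under vehicle. After 1,25D it lay at 7.56, 7.68, 9.01, 14.0, 3.20 and 17.9 RPKM. The lowest treated library stood just above the highest vehicle library, and Pdlim2 rose by 2.46 (SE 0.32; limma, adjusted p = 0.000204). Pgap1, which removes an acyl chain from the lipid anchor of surface proteins, ranged from 4.06 to 5.59 RPKM under vehicle and from 11.7 to 15.6 after 1,25D, with no overlap, and rose by 1.36 (SE 0.16, adjusted p = 2.97e-05).

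LOC100504348, an entry that RefSeq's table did not match, ranged from 11.3 to 16.7 RPKM under vehicle and from 30.1 to 48.8 after 1,25D. It rose by 1.36 (SE 0.14; limma, adjusted p = 5.14e-06), the smallest adjusted p after Cyp24a1. Ccdc134, a secreted coiled-coil protein, ranged from 2.72 to 5.71 RPKM under vehicle and from 7.20 to 11.7 after 1,25D (log2 1.21, SE 0.20, adjusted p = 0.00583). 5031439G07Rik ranged from 6.29 to 8.97 and from 10.9 to 15.2 RPKM (log2 0.81, SE 0.12, adjusted p = 0.00261). In all 4 of these genes, LOC100504348, Pgap1, Ccdc134 and 5031439G07Rik, treated and vehicle libraries did not overlap.

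Among transcription regulators, Bach1, a heme-responsive repressor of antioxidant genes, ranged from 25.3 to 45.7 RPKM under vehicle and from 56.9 to 95.2 after 1,25D. The groups were apart, and Bach1 rose by 0.93 (SE 0.17; limma, adjusted p = 0.0167). The fatty acid sensing receptor Ppard ranged from 9.40 to 20.2 RPKM and from 19.6 to 26.6, with treated replicate 5 below vehicle replicate 2, and rose by 0.82 (SE 0.17, adjusted p = 0.0484). Zhx2, a zinc finger and homeobox repressor, rose by 0.58 (SE 0.12, adjusted p = 0.0484), the smallest rise among the 28. Zhx2 and Ppard were kept in 5 and 4 of 24 fits that left out 1 library.

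Krt7, a keratin of simple epithelia, ranged from 9.06 to 12.9 RPKM under vehicle and from 13.3 to 32.5 after 1,25D, and rose by 1.03 (SE 0.21; limma, adjusted p = 0.0484, kept in 9 of 24). Its lowest treated library was replicate 6, not 5. Rnf149, a membrane ubiquitin ligase, likewise had its lowest treated value in replicate 6 (29.5 RPKM, beside 41.6 to 52.7 in the other 5) and rose by 0.74 (SE 0.16, adjusted p = 0.0484, kept in 2 of 24). Ttc22, a tetratricopeptide repeat protein, rose by 1.29 (SE 0.24, adjusted p = 0.0161), although 2 treated libraries fell below vehicle replicate 2. Mctp2, a membrane protein with C2 domains, rose by 0.91 (SE 0.18, adjusted p = 0.0268) and stood at 9.72 RPKM in treated replicate 4, beside 4.37 to 5.75 in the others. The mitochondrial motor Myo19 rose by 0.71 (SE 0.15, adjusted p = 0.0484) and the phosphatase inhibitor Ppp1r14d by 0.87 (SE 0.18, adjusted p = 0.0484). The last 2 raised entries, 2200002K05Rik (Vstm5 in RefSeq) and 9130004J05Rik, rose by 0.94 (SE 0.17, adjusted p = 0.0167) and 0.67 (SE 0.13, adjusted p = 0.0205). Both had treated libraries wholly above vehicle.

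The 28 raised genes did not rise evenly across the treated libraries. Rescue 1,25D replicate 5 was the lowest of the 6 in 19 of the 28 genes, replicate 4 the highest in 13 and replicate 6 the highest in 9. The median rise over the vehicle mean, on the log2 scale, was 0.72 in replicate 5, 1.03 in replicate 1, 1.17 in replicate 2, 1.22 in replicate 3, 1.33 in replicate 6 and 1.43 in replicate 4. Replicate 5 also had the lowest summed RPKM of 14 enterocyte markers (2115, beside 8048 in replicate 4 and 10647 in replicate 6). The part of this in the result was not tested. In this bulk tissue fewer cells of a type and less RNA per cell cannot be told apart. Without replicates 4 and 5, 22 genes were called, 18 of them among the 29. The calls of the other 11 were lost, with limma adjusted p just past the threshold for Grin1 and Bach1 (0.0516 each), Mctp2 (0.0628) and Maoa (0.0778). They were further from it for 9130004J05Rik (0.105), Ppard (0.108), Pfdn4 (0.115), Myo19 (0.132), Krt7 (0.165), Zhx2 (0.174) and Rnf149 (0.195). The log2 fold changes of these 11 without both libraries kept their sign; that of Mctp2 was 0.83, beside 0.91 with them.

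**Figure D2:**
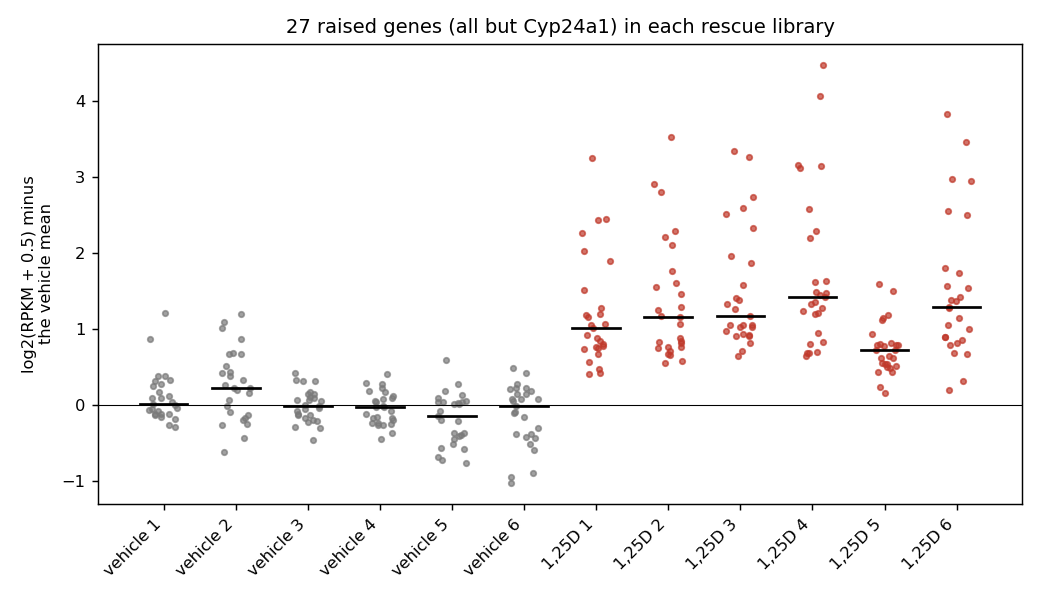
Each point is 1 of 27 raised genes in 1 library, as log2(RPKM + 0.5) minus that gene's mean over the 6 vehicle libraries; bars are medians, and Cyp24a1 is left out because it would stretch the axis. Treated replicate 5 has the lowest median of the 6 treated libraries and replicate 4 the highest.

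Just outside the threshold on the higher side stood 10 genes with adjusted p from 0.0501 to 0.1 and log2 fold changes from 0.50 to 0.95. These were Ate1, Arfgef2, Bzw1, Ptprj, Ttc39b, Fbln1, Tle3, Soat1, Arhgap32 and Slc35f2, and in 6 of the 10 the groups did not overlap. Ate1, which adds arginine to protein ends, ranged from 19.1 to 24.3 RPKM under vehicle and from 27.1 to 35.8 after 1,25D (log2 0.56, SE 0.12, adjusted p = 0.0501). Soat1, which esterifies cholesterol, ranged from 18.5 to 27 RPKM and from 21.0 to 52.0; treated replicate 6 was inside the vehicle range and the other 5 above it (log2 0.84, SE 0.19, adjusted p = 0.0876). Slc35f2, a solute carrier, had 0.94 (SE 0.22, adjusted p = 0.1) with only treated replicate 5 inside the vehicle range.

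Maoa, the monoamine oxidase that breaks down serotonin and other amines, was the single gene that fell. It lay at 32.3, 41.6, 27.5, 26.9, 38.1 and 29.5 RPKM under vehicle. After 1,25D it lay at 13.8, 20.4, 19.0, 25.7, 13.3 and 22.8 RPKM. Every treated library was below every vehicle library, with replicate 4 only just below; such an arrangement was found in 26 genes (0.13%). Maoa fell by 0.77 on the log2 scale (SE 0.16; limma, adjusted p = 0.0484), a call kept in 4 of 24 fits that left out 1 library (normal 1,25D replicate 1, normal vehicle replicate 6 and rescue 1,25D replicates 4 and 6), with adjusted p between 0.0276 and 0.176. Without both treated replicates 4 and 5 the adjusted p was 0.0778, and with only the rescue libraries fitted it was 0.2.

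The 10 genes just outside the threshold on the lower side had adjusted p from 0.0672 to 0.216. Adh4, an alcohol dehydrogenase that oxidizes retinol, ranged from 4.21 to 9.56 RPKM under vehicle and from 0.438 to 5.15 after 1,25D (log2 -1.46, SE 0.33, adjusted p = 0.0842). Lrat, which stores retinol as esters, ranged from 12.9 to 19.5 RPKM and from 7.57 to 12.1, with no overlap (log2 -0.70, SE 0.17, adjusted p = 0.121). Hsd3b3, a steroid dehydrogenase, ranged from 8.00 to 16.0 RPKM and from 2.25 to 7.50, also with no overlap (log2 -1.27, SE 0.32, adjusted p = 0.177). Akr1c14, a keto reductase, had -0.89 (SE 0.21, adjusted p = 0.1) and Sord, the sorbitol dehydrogenase, -0.71 (SE 0.18, adjusted p = 0.216). The others were Fchsd2, Slc6a20a, the caspase Casp6, Rhebl1 and Osbpl1a, and in 3 of the 10 the groups did not overlap.

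Genes of nutrient absorption gave no call but had more negative than positive values. Of 34 lipid genes, 30 had a log2 fold change below 0 (median -0.31), of 24 carbohydrate genes 20 (median -0.20), of 25 peptide and amino acid genes 18 (median -0.21) and of 32 xenobiotic genes 21 (median -0.26). Over all genes tested, 7808 of 20006 were below 0 and the median was 0.06. The 4 medians stayed below 0 with quantile normalization, with median-of-ratios scaling and without treated replicates 4 and 5, between -0.34 and -0.16. With an unadjusted p under 0.05, 4 lipid, 4 carbohydrate, 3 peptide and 2 xenobiotic genes were on the lower side, and 2 peptide and 2 xenobiotic genes on the higher. Fabp1, the fatty acid carrier of enterocytes, ranged from 281 to 988 RPKM with a median of 644 under vehicle, and from 214 to 894 with a median of 321 after 1,25D. Vehicle replicate 6 and treated replicate 6 lay against the direction of their groups (log2 -0.77, SE 0.30, adjusted p = 0.878). Sis, the sucrase of the brush border, ranged from 296 to 952 RPKM and from 239 to 702 (log2 -0.79, SE 0.28, adjusted p = 0.817).

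In the peptide list the proline transporter Slc6a20a ranged from 10.5 to 24.1 RPKM under vehicle, and after 1,25D from 2.58 to 9.06 in 5 libraries with 18.7 in replicate 4. Its log2 fold change was -1.31 (SE 0.31, adjusted p = 0.121), or -1.59 without treated replicates 4 and 5, where it passed (adjusted p = 0.00995). Slc6a20a was called in 1 of 24 fits that left out 1 library (limma adjusted p up to 0.458), and had 0.512 with only the rescue libraries. The aminopeptidase Enpep ranged from 22.0 to 86.7 RPKM under vehicle and from 17.6 to 32.4 after 1,25D (log2 -1.03, SE 0.27, adjusted p = 0.246). Apoa1, the protein of high-density lipoprotein, had -0.90 (SE 0.44, adjusted p = 0.878). In the xenobiotic list Gstm3, a glutathione transferase, went the other way. It ranged from 11.3 to 19.4 RPKM under vehicle and from 13.9 to 78.2 after 1,25D, with treated replicate 5 alone inside the vehicle range (log2 1.59, SE 0.38, adjusted p = 0.134). Without treated replicates 4 and 5 Gstm3 passed, at 1.94 (adjusted p = 0.0308), and it passed with the replicate number as a block (0.048). Gstm3 was called in 1 of 24 fits that left out 1 library (limma adjusted p up to 0.498), and had 0.144 with only the rescue libraries. Cyp2b10, a drug-metabolizing cytochrome, had 1.53 (SE 0.57, adjusted p = 0.878), at 80.1 RPKM in treated replicate 4 and 4.09 in replicate 5, and 1.54 (adjusted p = 0.594) without both.

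Of the 27 ion and water genes 22 had negative values (median -0.30), 5 of them with an unadjusted p under 0.05. The water and glycerol channel Aqp3 ranged from 0.353 to 3.42 RPKM under vehicle and from 0.163 to 0.839 after 1,25D (log2 -1.41, SE 0.36, adjusted p = 0.221). Guca2b, the peptide uroguanylin, which regulates salt and water secretion, ranged from 15 to 74 RPKM and from 6.56 to 41.8 (log2 -1.40, SE 0.49, adjusted p = 0.77). Among the 22 pathway lists the glucocorticoid and fasting response had the lowest median, -0.48, with 18 of 20 genes below 0 and none called by limma; 2 had an unadjusted p under 0.05. Txnip, a sugar-responsive arrestin of that list, had -0.67 (SE 0.27, adjusted p = 0.878).

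No gene was called in the lists of the microvillus (19 tested, median -0.02), intestinal transcription factors (18, 0.01), the clock (17, -0.10), immediate early genes (18, 0.10), sterol synthesis (21, 0.24), the interferon response (21, 0.05), innate defence (16, 0.21) or the cell cycle (25, 0.04). With an unadjusted p under 0.05 in limma these 8 lists held 2 transcription factors, 1 immediate early and 1 sterol gene on the higher side, and 3 clock genes and 1 defence gene on the lower. The transcription factors were Pdx1, the duodenal homeobox factor, and Maf. Pdx1 ranged from 19.1 to 29.1 RPKM and from 27.9 to 51.9, with only treated replicate 5 inside the vehicle range (log2 0.65, SE 0.18, adjusted p = 0.312). Maf ranged from 15.9 to 39.5 RPKM and from 25.3 to 50.1 (log2 0.67, SE 0.19, adjusted p = 0.374).

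**Figure D3:**
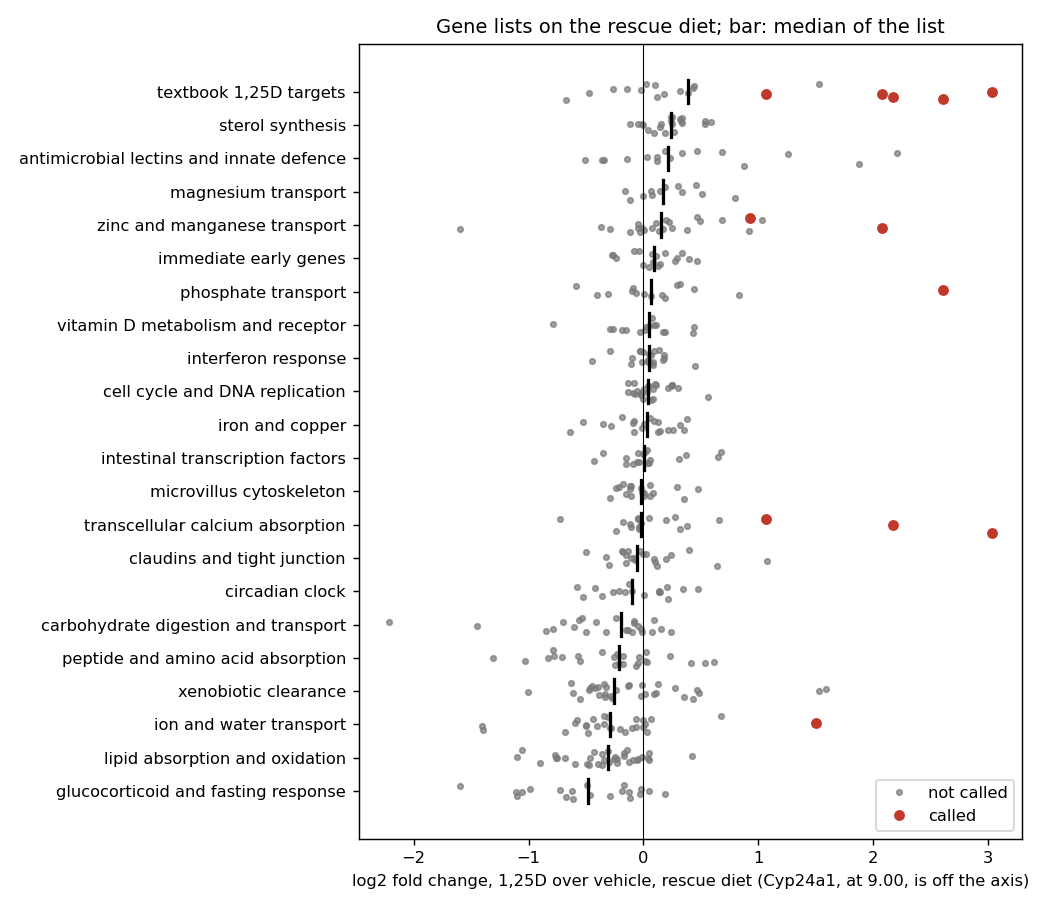
Log2 fold change, 1,25D over vehicle on the rescue diet, of the tested genes in 22 gene lists. Black bars are list medians and red points are genes called at adjusted p under 0.05. Cyp24a1, called in the vitamin D metabolism and target lists with a value of 9.0, is not drawn but counts in the medians. Called genes stand to the right in the target, calcium, phosphate, zinc and manganese and ion lists, and the medians of the nutrient absorption lists lie left of 0.

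Cell markers were checked because the tissue is a mixture. Markers that define the duodenal epithelium were present, with all 14 enterocyte markers found and none at 0 in all 12 libraries. Summed enterocyte marker RPKM ranged from 2818 to 13269 with a median of 8207 under vehicle, and from 2115 to 10647 with a median of 5007 after 1,25D; 13 of 14 markers had a negative log2 fold change (median -0.52), none called by limma and 3 with an unadjusted p under 0.05. Summed Paneth cell marker RPKM ranged from 9152 to 20358 and from 8554 to 12557, with 10 of 10 negative (median -0.50). Summed crypt stem cell marker RPKM ranged from 540 to 1287 and from 389 to 877, with 9 of 10 negative (median -0.34). For the 4 red blood cell markers the sums ranged from 77.2 to 250 and from 115 to 333 RPKM, with 4 of 4 positive (median 0.70). Positive values also prevailed among markers of mast cells and granulocytes (5 of 5, median 0.44), B and plasma cells (7 of 7, 0.30), fibroblasts (8 of 8, 0.20), smooth muscle (11 of 12, 0.09) and macrophages and dendritic cells (11 of 12, 0.07), beside a median of 0.06 over all genes tested. Markers of T cells (7 of 10 negative, median -0.12) and adipocytes (3 of 4 negative, -0.28) went the other way. None of these was called by limma. On the higher side 2 red blood cell markers and 1 B and plasma cell marker had an unadjusted p under 0.05, and on the lower side 1 T cell and 1 adipocyte marker. Without treated replicates 4 and 5 the median was -0.10 for smooth muscle, 0.06 for fibroblasts and 0.01 for macrophages and dendritic cells. In the summed RPKM of each of these lists the groups overlapped. The part of these shifts in the values of the absorption genes was not tested.

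Carry-over from pancreas varied between libraries within both groups. The summed RPKM of 20 exocrine pancreas markers ranged from 69.0 to 13786 under vehicle and from 47.7 to 31650 after 1,25D, with medians of 2671 and 2592. By single marker, 17 of the 20 had a negative log2 fold change (median -0.33), and none was called by limma. In treated replicates 1 to 6 the exocrine pancreas sums were 31650, 1880, 47.7, 160, 8199 and 3303 RPKM. Cyp24a1 in the same libraries was at 430, 452, 627, 962, 92.1 and 278 RPKM. A link between them was not tested. Goblet, enteroendocrine and tuft cell sums overlapped as well, with medians of 1925 and 1740, 198 and 175, and 22.3 and 22.7 RPKM under vehicle and 1,25D. Negative log2 fold changes were found in 9 of 10 goblet (median -0.12), 10 of 14 enteroendocrine (-0.29) and 3 of 6 tested tuft cell markers (-0.01), none called.

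**Figure D4:**
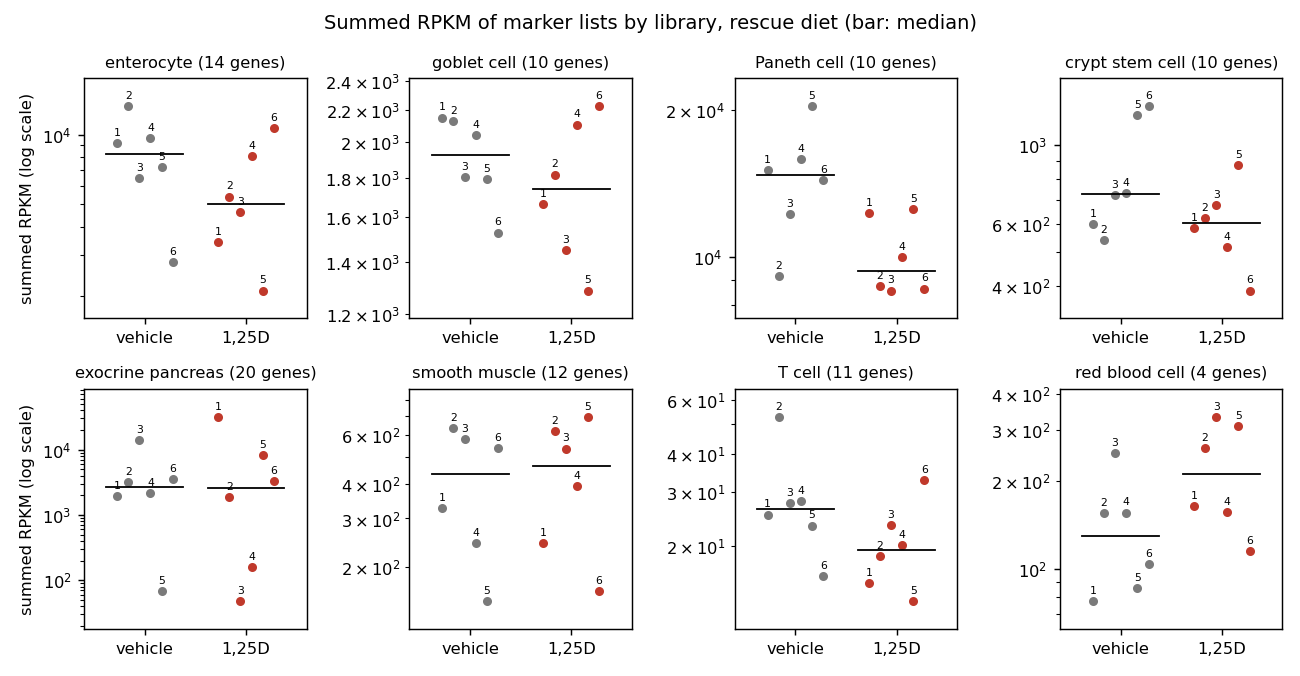
Summed RPKM (log scale) of 8 marker lists in each rescue diet library, numbered by replicate; grey is vehicle, red is 1,25D and the bar is the median of 6. The 2 groups overlap in each panel, and exocrine pancreas markers span from 47.7 to 31650 RPKM.

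Whether the response differed from that on the normal diet was tested as the difference between both effects in the same fit. For none of the 29 genes did that difference pass (adjusted p under 0.05 in limma), and 5 of the 29 had an unadjusted p under 0.05, where 6.85% of all genes tested had; 1 gene of all tested (0.005%) passed, Upb1, a call lost in 13 of the 24 fits that left out 1 library and with median-of-ratios scaling. Of the 28 raised genes, 25 had a smaller and 3 a larger log2 fold change on the rescue diet. Their differences ran from -1.33 to 0.08 with a median of -0.28, and the median log2 fold change was 1.05 on the rescue and 1.38 on the normal diet. The genes were chosen by their rise on the rescue diet, so these medians are a description.

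Intervals show what size of difference remains possible. For Cyp24a1 the difference was -0.14 on the log2 scale, with a 95% interval from -1.41 to 1.14. For S100g it was -0.80 (-2.54 to 0.95) and for Trpv6 -0.96 (-2.27 to 0.35). For Atp2b1 it was -0.92 (-1.57 to -0.27; unadjusted p = 0.00756, adjusted p = 0.417 in limma). Under vehicle Atp2b1 was at 112 ± 36.4 RPKM on the rescue and 78.5 ± 28.9 RPKM on the normal diet, and after 1,25D at 234 ± 59.6 and 299 ± 38.7 RPKM (SD, n = 6 each). Slc37a2 had -1.19 (-2.05 to -0.33; adjusted p = 0.43), Gm2061 -1.33 (-2.61 to -0.05; 0.697) and Slc30a10 -1.09 (-2.14 to -0.04; 0.702). LOC100504348 had 0.01 (-0.39 to 0.42), Ttc22 -0.01 (-0.69 to 0.68) and Ppard 0.08 (-0.42 to 0.58).

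Maoa had a fold change of the opposite sign on the normal diet, where it was not called (log2 0.41, adjusted p = 0.247 in limma). It was at 32.6 ± 5.99 RPKM under vehicle and 19.2 ± 4.88 after 1,25D on the rescue diet, and at 17.2 ± 3.20 and 23.0 ± 3.53 RPKM on the normal diet (SD, n = 6 each). The difference was -1.19 (-1.66 to -0.72), with an adjusted p of 0.0937 in limma. All 10 genes just outside the threshold on the lower side had a negative difference, and 5 of the 10 had a positive fold change on the normal diet. Adjusted p of the differences ran from 0.149 to 0.93 in limma. Maoa and these 10 were chosen by their negative values on the rescue diet, which by itself favours a negative difference, so the signs are a description. Hsd3b3, for one, had -1.27 on the rescue and 0.75 on the normal diet (difference -2.02, adjusted p = 0.151).

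**Figure D5:**
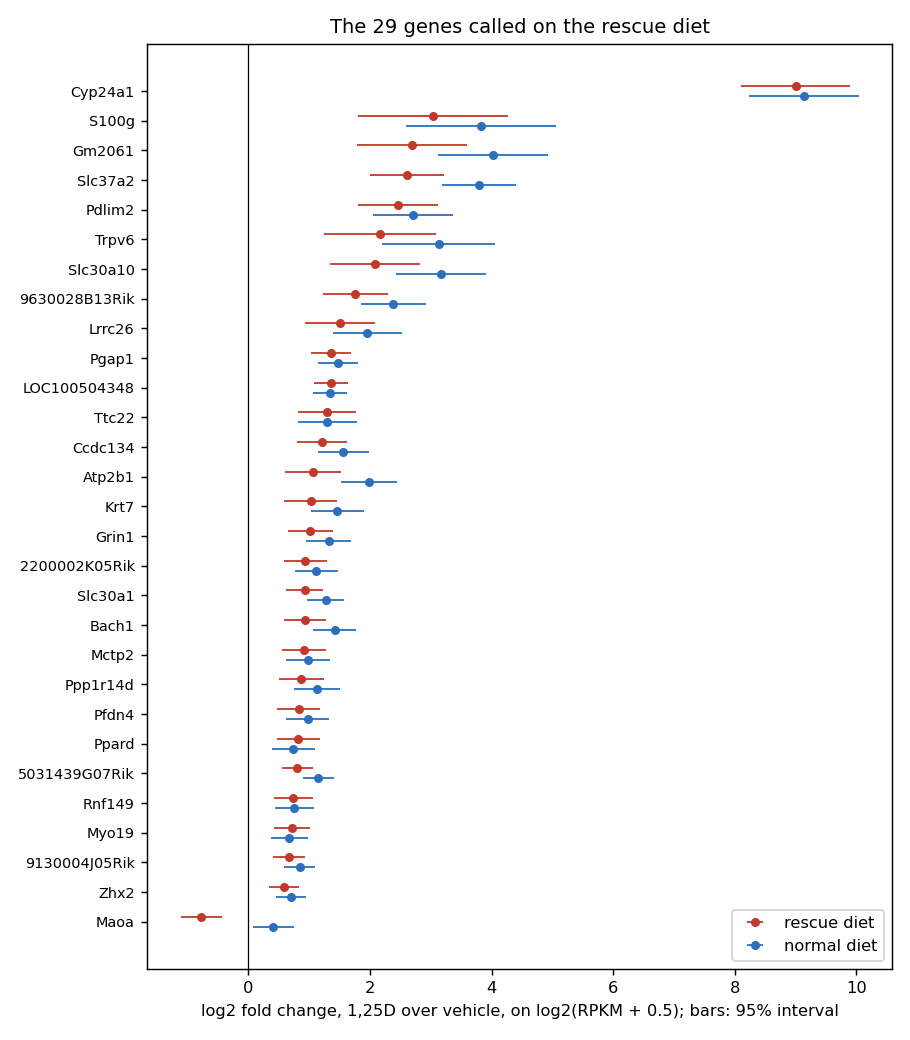
Log2 fold change, 1,25D over vehicle on log2(RPKM + 0.5), of the 29 genes called on the rescue diet (red) with the values of the same genes on the normal diet (blue); bars are 95% intervals from the limma fit. Cyp24a1 stands at 9.0 and 9.14, 25 of the 28 raised genes have the larger value on the normal diet, and Maoa lies on opposite sides of 0.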

How the data were processed

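RNA-seq of duodenum was analysed in 12 rescue diet libraries, fitted together with 12 normal diet libraries. Per the labels' protocols, ribosomal RNA was depleted from 8 µg of total RNA and directional libraries were made; the submitters' processing notes name TopHat and mm9, but no source used here gives the program that counted genes or its use of strand. As RPKM, the authors deposited 1 table for each library, per the file headers. Entries sharing a symbol (3470 of 25410 symbols) were summed. Genes that reached RPKM 0.5 in at least 6 of 24 libraries were tested on log2(RPKM + 0.5) with limma 3.58.1 (R 4.3.3): 1 mean per group, intensity trend, 20 residual degrees of freedom, two-sided, Benjamini-Hochberg adjustment over 20006 genes. Relative depth came from the steps between low RPKM values, and 75.4% of library pairs lay within 0.05 (log2) of the joint estimate. RPKM does not carry the read total of a library, so absolute depth, and with it counting error, is unknown.

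Named genes are Cyp27b1, Cyp24a1, Vdr, Trpv6, S100g and Atp2b1, every called gene, the 10 nearest uncalled genes in each direction, and up to 4 genes of each of 22 pathway and 21 marker lists, with further list members, Tmem218, 1700034H15Rik and B3galt5 picked after values were seen. The members and lists were chosen with earlier results of these data known. Alternatives changed the pseudocount, filter, scaling, weights, trend, entry summing, threshold, samples and replicate block. The script was tested on simulated data. Promoter windows and gene order are from RefSeq (GRCm38.p6); no coordinates in the files' build were used.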

Additional observations from a re-analysis of the deposited data

Results flagged for a closer look

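Outliers were looked for in 104 groups of 6 values: Cyp27b1, Vdr, every called gene and the marker sums, in each rescue group. Of these, 4 held a library whose gap to the rest passed Dixon's 95% limit, and chance gives such a gap in about 1 in 20 groups. The other named genes were not searched. Trpv6 stood at 0.529 RPKM in rescue vehicle replicate 5, where the other 5 vehicle libraries lay between 0.074 and 0.16. Mctp2 stood at 9.717 RPKM in rescue 1,25D replicate 4, where the others lay between 4.37 and 5.75. In rescue vehicle replicate 5 the summed exocrine pancreas markers were at 68.98 RPKM and the summed enteric neuron and glia markers at 4.658 RPKM, each the lowest of the 6 vehicle libraries.

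For 1 gene, Upb1, which acts in the last step of uracil breakdown, the difference between the responses to 1,25D on the 2 diets passed (difference of the log2 fold change, rescue minus normal, -1.862; limma, adjusted p = 0.024). The call was lost with median-of-ratios scaling (adjusted p = 0.126) and in 13 of the 24 fits that left out 1 library. These were normal vehicle replicates 1, 3 and 4, normal 1,25D replicates 4 to 6, rescue vehicle replicates 1 to 4 and rescue 1,25D replicates 1 to 3, and over all 24 fits the adjusted p ran from 0.00556 to 0.0717. On the rescue diet it ranged from 4.29 to 6.63 RPKM under vehicle and from 1.47 to 5.44 after 1,25D, with log2 -0.68 (SE 0.21, adjusted p = 0.512); on the normal diet the log2 fold change was 1.18.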

How the results depend on the processing

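The 29 genes called on the rescue diet became 52 with quantile normalization (45 higher, 7 lower), 90 with array weights (66 and 24) and 11 when only the 12 rescue libraries were fitted. Those 11 held 10 of the 29, and the calls of the other 19 were lost in that fit. The share of higher among called genes moved by over 10 percentage points with quantile normalization, with array weights and without rescue 1,25D replicate 4 (13 higher, 3 lower). The count was 20 with a pseudocount of 0.1, without a filter and with the highest entry per symbol, and 19 without the trend. Leaving out 1 library gave between 12 and 48. The 48 came from dropping normal vehicle replicate 6. Dropping a normal 1,25D library gave 19 for replicates 5 and 6. Dropping a rescue vehicle library gave 16 for replicate 1, 12 for replicate 3, 15 for replicate 4, 14 for replicate 5 and 15 for replicate 6. Dropping a rescue 1,25D library gave 19, 15, 14 and 16 for replicates 1 to 4. An adjusted p under 0.10 gave 42. The 1 gene whose response differed between diets became 2 with quantile normalization, 0 with median-of-ratios scaling, 32 with array weights, 5 at an adjusted p under 0.10, 4 without rescue 1,25D replicates 4 and 5 (chosen after seeing the data) and between 0 and 17 when 1 library was left out. With the replicate number as a block, 25 genes were called (21 of the 29) and 1 for the difference. Same-numbered rescue libraries deviated together with r from -0.371 to 0.35. The labels do not say whether the numbers pair the libraries, and these values cannot settle it. Rescue 1,25D replicates 2, 4, 5 and 6 correlated best with rescue vehicle replicates 2, 1, 6 and 1. The cause of the moves in the counts was not tested. Since the deposited values carry no depth, the counting error of low genes such as Trpv6 and Grin1 cannot be estimated here.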

Other observations

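Of 16 tested genes of innate defence, 12 had a positive log2 fold change on the rescue diet, and none was called by limma. Reg3b, an antibacterial lectin of enterocytes, lay at 572, 696, 541, 298, 82.7 and 71.6 RPKM under vehicle and at 1369, 881, 2235, 458, 246 and 3117 RPKM after 1,25D. The groups overlapped through treated replicates 4 and 5 (log2 1.88, SE 0.96, adjusted p = 0.878). On the normal diet its log2 fold change was -1.70, and the difference between the diets had an adjusted p of 0.518. The related Reg2 was at 311 RPKM in treated replicate 1 and at 124 in replicate 5, and at 6.68 RPKM or less in the other 4. Replicates 1 and 5 had the highest exocrine pancreas sums among the treated (31650 and 8199 RPKM). Rescue vehicle replicate 3 had a sum of 13786 RPKM, with Reg2 at 2.14 RPKM. A link between Reg2 and these sums was not tested.

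B3galt5, a galactosyltransferase that extends sugar chains on proteins and lipids, was picked after its values were seen. It lay at 2.37, 9.21, 2.82, 1.87, 1.30 and 1.65 RPKM under vehicle and at 17.3, 16.8, 133, 11.3, 6.47 and 19.7 RPKM after 1,25D. Only treated replicate 5 fell below the highest vehicle library, replicate 2 (log2 2.71, SE 0.68; limma, adjusted p = 0.18). On the normal diet its log2 fold change was -0.38, and the difference between the diets had an adjusted p of 0.32. Pck1, the entry enzyme of gluconeogenesis, had the most negative value in the lists of pathways (log2 -2.22, SE 0.97, adjusted p = 0.878). It ranged from 2.23 to 103 RPKM under vehicle and from 0.48 to 24.9 RPKM after 1,25D, with large spread in both groups.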
